A study of Mus musculus with 4 samples.

Results

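The 10 genes described here are Socs1 to Socs7 and Cish, which encode the suppressor of cytokine signalling (SOCS) family, and Pim1 and Pim2, which encode Pim kinases. They were taken by gene symbol from the whole deposited table, in which 27 of 45037 probe sets carry 1 of these symbols and no other. These are 10 of the 18193 genes with a symbol. Of the 27 probe sets, 25 were bright enough to be tested, and 1 of the 6 Socs2 and 1 of the 4 Socs7 probe sets were too dim. Every member therefore had at least 1 tested probe set, as 10 of the 12821 genes tested.

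Expression was measured on Affymetrix Mouse Genome 430 2.0 arrays in CD4 T cells of 2D2 Tg mice, whose transgenic T cell receptor recognises a peptide of myelin oligodendrocyte glycoprotein. Both genotypes carry this transgene, and the groups are wildtype 2D2 cells (2 arrays) and miR-146a-deficient cells, labelled 2D2KO (2 arrays). Naive cells had been sorted and stimulated for 3 days with plate-bound anti-CD3 at 5 µg/ml and anti-CD28 at 1 µg/ml, which the treatment label calls soluble, and no added cytokine is named. The labels call the replicates biological but give neither the age of the mice nor whether the replicates came from separate animals or cultures. The p-values therefore measure the spread between these samples. RNA came from bulk cells, so a smaller share of cells that express a gene and less of its RNA per cell cannot be told apart.

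SOCS proteins form a negative feedback loop. A cytokine receptor activates Janus kinases (JAKs), which phosphorylate STAT transcription factors, and the STATs switch on Socs genes and Cish, whose products bind phosphorylated receptors or JAKs through an SH2 domain. Their SOCS box recruits elongins and a cullin, forming a ubiquitin ligase that marks bound proteins for degradation. Pim kinases are also induced by STATs, but they have no regulatory domain, so their activity largely follows their level, and they promote growth and survival. In activated T cells IL-2 acting through STAT5 is a known inducer of Cish, Socs2, Pim1 and Pim2, and IL-6 acting through STAT3 of Socs3.

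The comparison asks how these genes differ in the absence of miR-146a, which is known to dampen NF-kB activation through Traf6 and Irak1. Its mature sequence is shown because it is what the genotypes differ in, beside that of miR-146b, its paralogue from another locus. Both sequences are from RefSeq, build GRCm38.p6, with the seed (bases 2 to 8) in capitals, at chr11:43374435-43374456 on the minus strand and chr19:46342790-46342811 on the plus strand.
miR-146a-5p: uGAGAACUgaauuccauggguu
miR-146b-5p: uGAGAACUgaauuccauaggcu
They have the same seed, and 20 of their 22 bases are identical. The transcript of the miR-146a gene itself was not analysed here, so the genotype rests on the labels.

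Promoter windows (250 bases before to 50 after the annotated start, RefSeq, GRCm38.p6) were at hand for 6 of the 10 members, in 7 windows because Pim1 has 2 starts. They were searched for TTCNNNGAA, the core motif bound by STAT factors, which reads the same on both strands. Cish had 2 matches and Socs3 had 1, while Socs1, Socs4, Pim1 and Pim2 had 0. Among all 32851 windows, 8.30% held at least 1 match and 0.457% at least 2. The stretches with the matches are shown, with the motif in capitals, because Cish is among the members whose arrays separated by genotype and Socs3 is the member with the largest spread. They lie at chr9:107296579-107296686 on the plus strand for Cish and at chr11:117969457-117969556 on the minus strand for Socs3.
Cish: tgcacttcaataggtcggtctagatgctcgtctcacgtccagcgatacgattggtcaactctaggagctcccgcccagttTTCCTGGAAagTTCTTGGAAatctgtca
Socs3: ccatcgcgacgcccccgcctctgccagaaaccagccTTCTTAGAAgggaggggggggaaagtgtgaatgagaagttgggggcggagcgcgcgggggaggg
The Cish matches cover bases 1 to 9 and 12 to 20 counted from the annotated start, and the Socs3 match covers bases -154 to -146. A match is a description of the letters and not evidence of a bound site.

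The values are MAS5 signals, a linear brightness per probe set that the authors had scaled to the same 2% trimmed mean of 500 on every array. The median over all probe sets was 57.7 and 50.2 for wildtype, against 51.4 and 48.6 for deficient cells. The ratio of 3' to 5' signal of the transferrin receptor control, a sign of RNA quality, was 2.40 and 2.74 in the wildtype and 1.92 and 2.23 in the deficient arrays. Its part in the differences below was not tested. Cd3e, a subunit of the T cell receptor complex, read 2349 and 2406 in wildtype and 2254 and 2652 in deficient cells, and Cd4 read 605 and 655 against 462 and 725, so the markers that define CD4 T cells were present in each sample. Differences are deficient minus wildtype in log2(signal + 14.7), which understates changes of dim genes, given with the standard error or with the 95% interval of limma's moderated fit over all 12821 genes. For each gene the probe set with the highest mean was used, called the brightest. Signals of different probe sets are not compared with each other.

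None of the 10 members rose or fell. The smallest adjusted p was 0.953 (limma, Benjamini-Hochberg over all genes tested), beside 0.179% of all genes that passed the threshold of 0.05, which is 23 genes. No member had an unadjusted p below 0.05 either, beside 5.26% of all genes (2.85% higher and 2.42% lower). The median difference of the members was -0.07, against -0.01 for all genes tested, and 8 of the 10 lay below 0, beside 6729 of all 12821 genes. With arrays centred on the median of all probe sets, 4 of 10 lay below 0, and without wildtype replicate 2, 4 of 10, so the side of 0 on which most members lay depends on the scaling and on 1 array. The 95% intervals of the 10 genes reached from 0.744-fold to 1.62-fold of the wildtype level on the scale used. With 2 arrays a group, an exact two-sided permutation test of a single gene cannot give a p below 0.333.

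**Figure D1:**
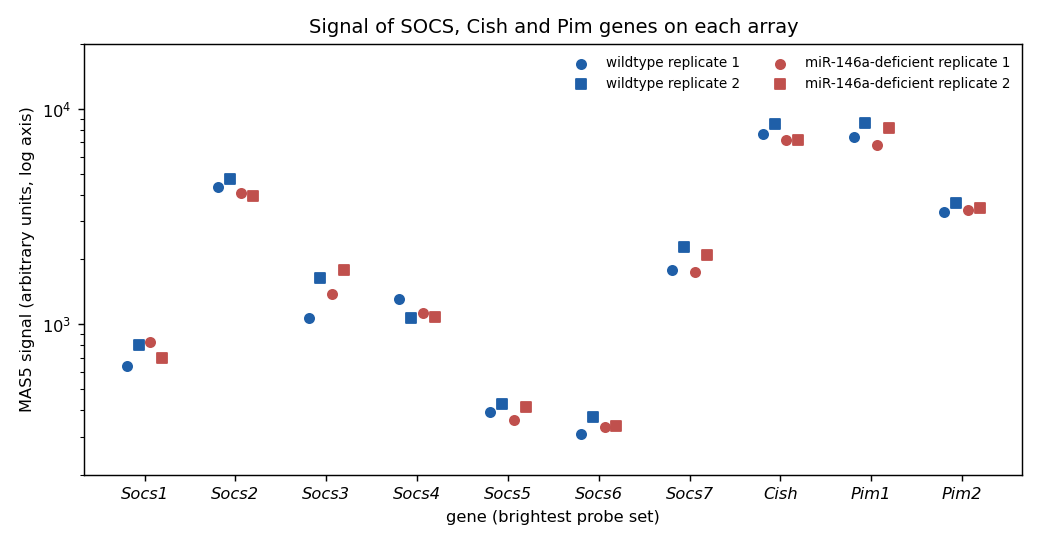
MAS5 signal (log axis, arbitrary units) of the brightest probe set of each of the 10 genes on the 4 arrays, blue for wildtype and red for miR-146a-deficient, with circles for replicate 1 and squares for replicate 2. For Socs2 and Cish both deficient arrays lie below both wildtype arrays, and for the other 8 genes the genotypes overlap; signals of different genes are from different probes and are not comparable.

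Cish and Socs2 were the 2 of 10 members (20%) whose arrays separated by genotype, both lower in the deficient cells, beside 17.7% of all genes that were lower without overlap, so their share is near that of all genes. Cish, whose product limits IL-2 receptor and T cell receptor signalling, read 7652 and 8477 in the wildtype and 7173 and 7154 in the deficient arrays. Both deficient arrays lay below both wildtype arrays, and the deficient pair was nearly equal. The difference was -0.17 ± 0.09 (interval -0.38 to 0.04, adjusted p = 0.953), a ratio of mean signals of 0.888. Without wildtype replicate 1 it was -0.24 and without wildtype replicate 2 it was -0.10.

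Socs2, whose product restrains growth hormone signalling and, in T cells, type 2 responses, read 4327 and 4700 in the wildtype and 4086 and 3947 in the deficient arrays. The deficient arrays were again both below the wildtype arrays. The difference was -0.17 ± 0.09 (interval -0.38 to 0.05, adjusted p = 0.958), a ratio of mean signals of 0.890. Its second bright probe set (1418507_s_at) read 3267 and 3470 against 2880 and 2926, with a difference of -0.21 (adjusted p = 0.912). The dimmer Socs2 probe set 1442586_at read 154.3 and 111.0 against 87.7 and 47.0, so its genotypes did not overlap, and it had the largest difference among the 25 tested probe sets, -0.88 with an interval of -1.61 to -0.14 (unadjusted p = 0.0244, adjusted p = 0.838). Without deficient replicate 2 that value was -0.51. The probe sets 1438470_at and 1446085_at differed by -0.34 and -0.13, the latter with overlapping arrays. All 5 tested Socs2 probe sets thus lay below 0, by amounts that differ between them. At gene level 0 of 10 members were higher without overlap, beside 15.9% of all genes (33.6% in either direction).

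Socs1 and Socs3 encode the members that inhibit JAKs directly, Socs1 chiefly after interferon-gamma and IL-2 and Socs3 after IL-6 family cytokines. Socs1 read 639 and 802 in the wildtype and 827 and 695 in the deficient arrays. The highest and the lowest arrays were of different genotypes, and the groups overlapped, with a difference of 0.08 ± 0.15 (interval -0.27 to 0.43, adjusted p = 0.989). Its sign turned without wildtype replicate 1 (-0.08) or deficient replicate 1 (-0.04).

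Socs3 on its brightest probe set (1455899_x_at) read 1070 and 1643 in the wildtype and 1381 and 1781 in the deficient arrays, with overlap. The wildtype arrays differed from each other by 0.61, more than the genotypes did (0.24 ± 0.20, interval -0.22 to 0.70, adjusted p = 0.974), and without wildtype replicate 1 the difference was -0.07. A second Socs3 probe set (1456212_x_at) read 806 and 903 against 1070 and 1203, and both of its deficient arrays lay above both wildtype arrays. That difference was 0.41 (interval 0.12 to 0.69, unadjusted p = 0.0112), and it did not pass over all probe sets (adjusted p = 0.705). The third (1416576_at) read 414 and 507 against 542 and 473, with overlap and a difference of 0.14. The suffix _x_at marks probe sets whose probes may also bind other transcripts, and this applies to both of the brighter Socs3 probe sets.

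Socs4 to Socs7 encode members with long amino-terminal regions, known mostly from receptor tyrosine kinase and insulin signalling. Socs4 read 1313 and 1068 in the wildtype and 1129 and 1078 in the deficient arrays, with a difference of -0.10 ± 0.13 and overlap. Its other 3 probe sets differed by 0.06, -0.34 and -0.28. Socs5 read 391 and 426 against 360.5 and 413, a difference of -0.08 ± 0.15, and its other probe set differed by -0.05. For both genes the arrays of at least 1 genotype were further apart than the genotypes were. Socs6, whose product can target the kinase Lck for degradation, read 311 and 372 against 332 and 336, with both deficient arrays inside the wildtype range and a difference of -0.02 ± 0.16. Its dimmer probe set 1435492_at read 125.5 and 104.3 against 94.7 and 101.2, lower without overlap by a small margin, at -0.20 ± 0.24 (adjusted p = 0.979), and 1452764_at differed by -0.10 ± 0.34. Socs7 read 1777 and 2275 against 1747 and 2098, a difference of -0.07 ± 0.14, and its other tested probe sets differed by -0.04 and -0.10. With arrays centred on the median of all probe sets, the differences of Socs5, Socs6 and Socs7 lay above 0, at 0.0043, 0.059 and 0.013. Each of these 4 genes had an adjusted p above that of Socs3.

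Pim1 and Pim2 encode constitutively active serine/threonine kinases that sustain protein synthesis and survival after cytokine stimulation. Pim1 read 7386 and 8601 in the wildtype and 6823 and 8178 in the deficient arrays. The genotypes overlapped, and the arrays of each genotype differed from each other by 0.22 and 0.26, against a genotype difference of -0.09 ± 0.12 (interval -0.36 to 0.17, adjusted p = 0.983). The other Pim1 probe set read 1497 and 1677 against 1312 and 1501, with overlap and a difference of -0.17. Pim2 read 3333 and 3671 against 3384 and 3467, so both deficient arrays lay inside the wildtype range, with a difference of -0.03 ± 0.10 (interval -0.25 to 0.19). This is the narrowest spread over the 4 arrays among the members. Its sign turned with arrays centred on the median of all probe sets (0.053).

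**Figure D2:**
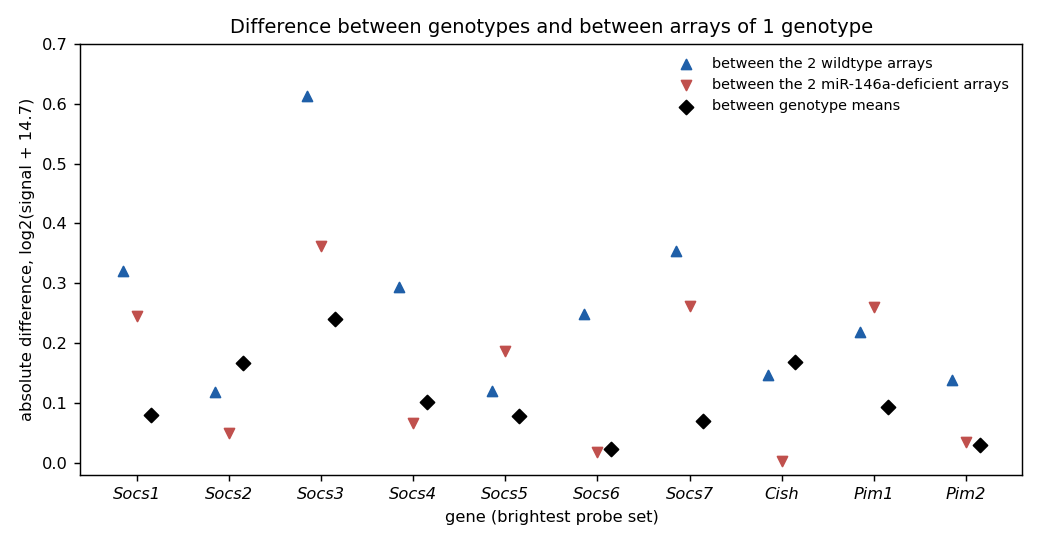
Absolute difference in log2(signal + 14.7) for the brightest probe set of each gene: blue triangles between the 2 wildtype arrays, red triangles between the 2 miR-146a-deficient arrays, black diamonds between the genotype means. The diamond is the highest mark for Socs2 and Cish, at 0.17 each, and lies below at least 1 triangle for the other 8 genes.

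For 8 of the 10 genes the arrays of at least 1 genotype differed from each other by more than the genotypes did; the exceptions were Socs2 and Cish. Over the 25 tested probe sets, 0 passed an adjusted p of 0.05 (limma), beside 0.167% of all 27022 probe sets. An unadjusted p below 0.05 was reached by 2, 1442586_at of Socs2 and 1456212_x_at of Socs3, which is 8% beside 5.45% of all probe sets. This count was 4 with quantile normalization, 1 without wildtype replicate 1 and 0 without deficient replicate 2. The arrays did not overlap and were lower in the deficient cells for 8 probe sets (32%, beside 20.0% of all), of which 4 are of Socs2 and 2 of Socs6, and were higher for 1 (4%, beside 14.2%, and 34.1% in either direction). Probe sets of 1 gene are not independent of each other, and the count leans on Socs2. The median difference of the 25 was -0.10, against -0.03 over all probe sets tested.

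**Figure D3:**
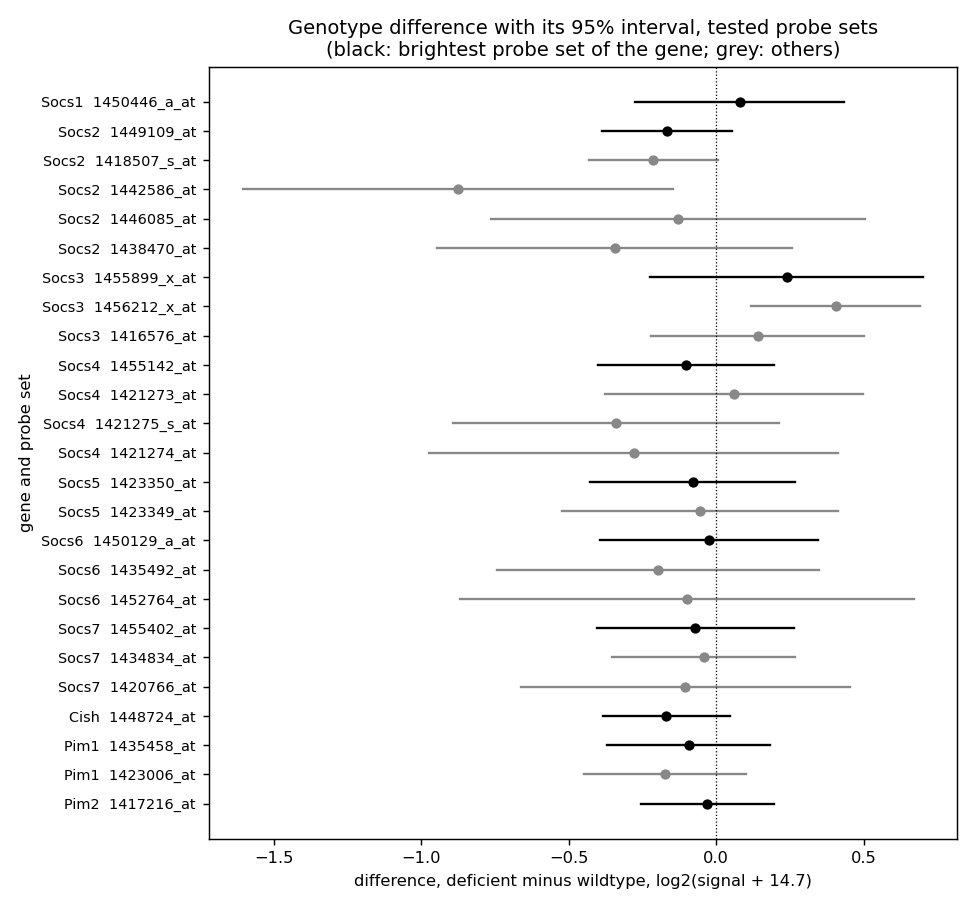
Genotype difference in log2(signal + 14.7), deficient minus wildtype, as a point with its 95% interval from the fit over all probe sets, for the 25 tested probe sets; black marks the brightest probe set of each gene. The interval lies off 0 for 1442586_at of Socs2 (-1.61 to -0.14) and 1456212_x_at of Socs3 (0.12 to 0.69), and covers 0 for the other 23.

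Socs3, the member with the largest spread over the arrays, was set against all tested genes by the root mean square difference of log2 values centred on each gene's mean over the 4 arrays. The nearest were Ubash3b (0.028), which encodes a phosphatase that restrains T cell receptor signalling, Afap1 (0.030), an actin-binding protein, Isg20 (0.038), an exonuclease induced by interferon, Slc29a3 (0.038), a nucleoside transporter, and Nrn1 (0.040), neuritin. Nrn1 read 1058 and 1705 in the wildtype and 1433 and 1906 in the deficient arrays. Among the other members the smallest such difference was that of Socs7, 0.18. With 4 arrays this is a description only.

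The genes of the pathway around the members were counted in lists of ligands, receptors, kinases, targets and partners. Among 17 tested ligands of JAK-coupled receptors, 3 rose and 0 fell, beside 0.172% and 0.00780% of all genes. Il2, the T cell growth factor that induces Cish through STAT5, read 2046 and 1692 in the wildtype and 3494 and 3906 in the deficient arrays. Both deficient arrays were well above, with a difference of 0.98 ± 0.12 (adjusted p = 0.0208). Ifng, the cytokine known to induce Socs1, differed by 0.73 ± 0.09 (adjusted p = 0.0195), from 6570 and 6772 to 11429 and 10699. Il3, a growth factor of myeloid progenitors, differed by 1.00 ± 0.14 (adjusted p = 0.0345). At an unadjusted p below 0.05 there were 5 higher and 3 lower ligand genes, the latter Il5, Il4 and Il9. Over all genes these shares were 2.85% higher and 2.42% lower. The median of the 17 was 0.11, but -0.035 without wildtype replicate 2 and -0.11 without deficient replicate 1, and 7 ligand genes passed without wildtype replicate 1. These 3 calls were lost without the filter on dim genes, without the intensity trend and with replicate number as a block (adjusted p = 0.0700 for Il2, 0.0704 for Ifng and 0.0856 for Il3), that of Ifng also without deficient replicate 1 (0.0626) and that of Il3 without deficient replicate 2 (0.0989). With the mean of probe sets for every gene, Il3 kept the same difference and had an adjusted p of 0.0521.

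Of 22 tested cytokine receptor genes, 0 passed, with a median of -0.02. An unadjusted p below 0.05 was found upwards for 2 and downwards for 1, beside 2.85% and 2.42% of all genes. The smallest p were those of Csf2rb, the chain shared by the IL-3 and GM-CSF receptors (0.64 ± 0.20), Il15ra (0.43 ± 0.14) and Il6ra (-0.65 ± 0.22). The IL-2 receptor genes Il2ra, also a STAT5 target, and Il2rb differed by -0.28 ± 0.15 and -0.17 ± 0.13. Il2ra read 5280 and 5528 against 5262 and 3767, so its difference rests on deficient replicate 2, and without that array it was -0.04.

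Of 10 tested JAK and STAT genes, 0 passed and the median was -0.05. There was 1 unadjusted p below 0.05 in each direction, beside 2.85% of all genes upwards and 2.42% downwards. Jak2 differed by -0.33 ± 0.13 (adjusted p = 0.877) and Stat4, the mediator of IL-12 signalling, by 0.28 ± 0.12 (adjusted p = 0.933). Stat5a and Stat5b, which act downstream of IL-2, differed by -0.14 ± 0.15 and -0.06 ± 0.11, and Stat3 by -0.19 ± 0.13. Stat5a read 3339 and 3103 against 2493 and 3423, with overlap. Stat5b differed by 0.019 with arrays centred on the median of all probe sets. Il2rg was not analysed here.

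Other inhibitors of the pathway (13 tested, 0 passed, 0 with an unadjusted p below 0.05, median 0.03) included Usp18, a restraint on interferon signalling, at 0.43 ± 0.24, and the phosphatase genes Ptpn2 and Ptpn11 at -0.14 and -0.11. Usp18 read 372 and 434 in the wildtype against 416 and 721 in the deficient arrays, with overlap. With 1 array left out its difference ran from 0.047 to 0.82. The partners of the SOCS box (8 tested, 0 passed, 0 with an unadjusted p below 0.05, median 0.02) included the elongin genes Eloc and Elob at 0.15 and 0.13 and Arih2, a ligase that works with cullins, at -0.15. With the mean of its probe sets Eloc differed by -0.061. Among Pim3 and genes of Pim substrates (13 tested, 0 passed, 0 with an unadjusted p below 0.05, median 0.0032), Map3k5, Myc and Cdkn1b differed by 0.17, 0.07 and -0.14.

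STAT5 targets other than the members (15 tested, median -0.03) had 0 members that passed. An unadjusted p below 0.05 was reached by 1, upwards, beside 2.85% of all genes. This was Gzmb, the granzyme B gene, at 0.36 ± 0.11 (adjusted p = 0.642). Without wildtype replicate 2, Gzmb differed by 0.51 and passed (adjusted p = 0.00464), with the lone wildtype array assumed to vary like the deficient pair. Il2ra and Il4ra followed at -0.28 and -0.17. STAT3 targets (11 tested, median 0.07) had 0 that passed and 0 with an unadjusted p below 0.05, with Bcl6, Il17a and Mcl1 at 0.55, 0.54 and 0.09. Without deficient replicate 1 the median was -0.11. The first 2 were dim, with no array above 136.4 for Bcl6 and 92.1 for Il17a.

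**Figure D4:**
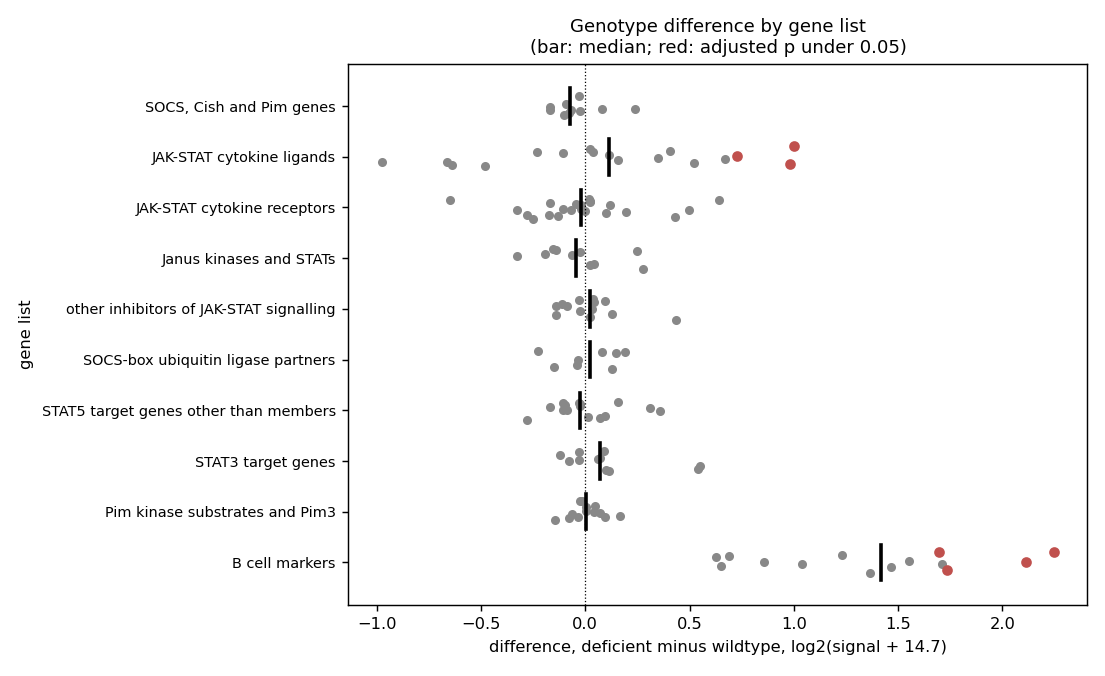
Genotype difference in log2(signal + 14.7), deficient minus wildtype, of every tested gene in the member list, 8 pathway lists and the B cell marker list; red points passed an adjusted p of 0.05 and black bars are list medians. The members lie between -0.17 and 0.24 with no red point, and the ligands spread from -0.97 to 1.00 with 3 red points. The tested B cell markers all lie above 0.

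Some markers of other cells differed between the genotypes beside these values. The summed signal of 16 B cell markers was 6326 and 9450 in the wildtype and 18289 and 18940 in the deficient arrays. All 14 that were tested lay higher, and 4 of them rose (Blnk, Ms4a1, Cd22 and Pou2af1), beside 0.172% of all genes. The filter used the mean of all 4 arrays, so a marker could pass it through 1 genotype alone. Of the 16 markers, tested or not, 14 had a higher mean signal in the deficient arrays. Pax5 and Fcrla, both below the filter, had lower means. Pax5 read 68.9 and 23.9 in the wildtype against 11.3 and 21.9 in the deficient arrays. Fcrla read 40.7 and 16.1 against 30.1 and 21.5, with overlap. Ms4a1, which encodes CD20, read 167 and 228 against 838 and 1150, and Cd79a, a B cell receptor subunit, read 67.7 and 127.4 against 174.4 and 138.0. The calls of Cd22 and Pou2af1 were lost with the replicate block (adjusted p = 0.0527 and 0.0700) and with the mean of probe sets (0.385 and 0.0745), where Cd22 differed by 1.03, and that of Cd22 also without deficient replicate 2 (0.0838). Of 8 tested dendritic cell and macrophage markers, 2 rose (Ccl22 and Cybb), beside 0.172% of all genes, and 5 lay below 0, Lyz2 among them. The sums over 14 such markers, tested or not, were 1331 and 1044 against 2418 and 2937. All of that difference was carried by Ccl22, at 549 and 420.2 against 1625 and 2053, and Cybb, at 53.6 and 56.8 against 284.8 and 352. Only 4 of the 14 had a higher mean signal in the deficient arrays. With the mean of probe sets Cybb differed by 1.27 and did not pass (0.180). All 6 of these marker calls were lost without the filter and without the trend. Over 12 CD8 and NK cell markers the sums were 7743 and 8324 against 10825 and 12223. The largest part of that difference was Nkg7, at 4608 and 4932 against 6062 and 8154. Cd8b1 overlapped, at 707 and 767 against 644 and 888 (0.04), and Cd8a was dim, at 49.6 and 48.1 against 79.4 and 88.9. Of 9 tested, 0 passed and 4 had an unadjusted p below 0.05 upwards, beside 2.85% of all genes. All 9 lay above 0, with Klrk1, Nkg7 and Eomes at 1.10, 0.56 and 0.87. With arrays centred on the median of all probe sets, Klrk1 differed by 1.18 and passed (adjusted p = 0.0335). Each of these 3 also passed with at least 1 array left out, where the lone array is assumed to vary like the other pair. Klrk1 then differed by 1.38 without wildtype replicate 1 and Eomes by 1.18 without wildtype replicate 2. Nkg7 differed by 0.61 without wildtype replicate 2 and by 0.77 without deficient replicate 1. Summed T cell markers overlapped, at 68756 and 79679 against 72222 and 77485, and 0 of 13 passed, with Cd27, Cd6 and Cd5 at 0.53, -0.26 and -0.16. There was 1 unadjusted p below 0.05, that of Cd27, beside 2.85% of all genes upwards. Pax5, which defines B cells, and Itgax, Flt3, Itgam and Cd14, which define dendritic cells and macrophages, lay below the filter in these samples. The part of these markers in the values of the members and of the cytokine genes was not tested.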

How the data were processed

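Each array has a linear intensity for every probe set, deposited by the authors and, per the submitters' processing notes, made with MAS5. Those notes also list the Transcriptome Analysis Console; neither has a version there. Scanner files were not used, and no source used here gives slide or scan batch. From the 45101 probe sets, 64 controls were left out; in the platform annotation 34945 have 1 gene symbol, 932 several and 9160 none, and only those with 1 were named. No probe set with several symbols holds a member.

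Signals were transformed as log2(signal + 14.7), the 25th percentile of all values. Probe sets below the 40th percentile of mean log2 (5.48, a signal of 29.9) were not tested. limma 3.58.1 in R 4.3.3 (lmFit, eBayes with intensity trend, 8.60 degrees of freedom, 2 of them from the arrays) compared 2 with 2 arrays, two-sided, with Benjamini-Hochberg adjustment, once over genes by their brightest probe set and once over probe sets. The script was tested on simulated data. The members, lists and tests were chosen with earlier results of these data known. Named by rule were all members, per list the genes that passed and those with the smallest p up to 3, fixed STAT, IL-2 and cell marker genes, and the 5 genes nearest to the member with the largest spread. One list and its genes, which count among the listed genes, are not reported here. Alternatives changed the pseudocount, filter, scaling, trend, probe set rule, block and arrays. The number of arrays limits the precision. Figures used matplotlib 3.10.9 in Python 3.11.15.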

Additional observations from a re-analysis of the deposited data

How the results depend on the processing

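The count of 0 members called held in every alternative run, over genes and over probe sets; the smallest adjusted p among member genes was 0.185, without wildtype replicate 2. An unadjusted p below 0.05 was reached by 1 member, Cish, with quantile normalization and without wildtype replicate 1, and by 1, Socs3, without wildtype replicate 2. Counts outside the members moved more. Of all genes, where 23 passed, 2 passed without a filter, 51 with median centring over all probe sets, 0 without the trend, 14 with the mean of probe sets and 27 to 99 with 1 array left out. Of listed genes, where 10 passed, the same settings gave 0, 17, 0, 6 and 9 to 21. Of all probe sets, where 45 passed, they gave 4, 88 and 0, and 29 to 140 with 1 array left out. With 1 array left out, a genotype has 1 array, assumed to vary like the other pair. The replicate block called 14 genes, 6 listed genes and 71 probe sets, and the labels do not say what a shared number marks. For that reason the main fit does not pair arrays by number. Deviations of same-numbered arrays from their genotype mean correlated across genes with r of 0.050. A value over all genes cannot show that single genes lack a replicate effect. From replicate 1 to 2, Socs3 to Socs7, Pim1 and Pim2 changed in the same direction in both genotypes (Socs3 by 0.61 and 0.36). Socs1, Socs2 and Cish changed in opposite directions (Socs1 by 0.32 and -0.25). Median centring moved the median of all tested genes by less than 0.1, from -0.01 to 0.073.

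Small differences changed sign, and the cause was not tested. Centring over all probe sets gave 0.0043 for Socs5, 0.059 for Socs6, 0.013 for Socs7, 0.053 for Pim2, 0.019 for Stat5b, 0.029 for 1423349_at (Socs5) and 0.042 for 1434834_at (Socs7). Centring over probe sets past the filter, chosen after seeing the data, gave 0.019 for Socs6, 0.013 for Pim2 and 0.0014 for 1434834_at, and quantile normalization 0.010 for Socs6. The mean of probe sets gave -0.061 for Eloc and -0.10 for Bcl6. With 1 array left out, values ran from -0.080 to 0.24 for Socs1, -0.067 to 0.55 for Socs3, -0.25 to 0.045 for Socs4, -0.17 to 0.015 for Socs5, -0.15 to 0.10 for Socs6, -0.25 to 0.11 for Socs7, -0.22 to 0.037 for Pim1 and -0.10 to 0.039 for Pim2. They ran from -0.37 to 0.11 for 1446085_at (Socs2), -0.00063 to 0.28 for 1416576_at (Socs3), -0.021 to 0.14 for 1421273_at (Socs4), -0.23 to 0.12 for 1423349_at, -0.16 to 0.075 for 1434834_at and -0.35 to 0.14 for 1420766_at (Socs7). Outside the members they ran from -0.11 to 1.19 for Il17a, -0.46 to 0.18 for Cdkn1b, -0.076 to 0.16 for Cd3e, -0.43 to 0.20 for Cd4, -0.37 to 0.088 for Stat5a, -0.17 to 0.040 for Stat5b, -0.021 to 0.53 for Ubash3b, -0.12 to 0.56 for Afap1, -0.06 to 0.53 for Isg20 and -0.044 to 0.64 for Nrn1. Dim probe sets have the widest intervals.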
